A study of Mus musculus with 18 samples.

Results

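RNA polymerase II (Pol II) occupancy was compared between ventricles of *Mettl3* KO mice (genotype Mettl3lox/lox:alphaMHC-MerCreMerpos) and of WT mice, outside *Trdn* and the genes of the daily clock. The members were the 4 Pol II ChIP-seq libraries of these genotypes, 2 for each, chosen by their labels from the 18 samples of the series, and the peaks on chromosomes 1 to 19. Of 101256 peaks in the deposited table, 99188 lay on these chromosomes and 51806 of them passed the filter on low values, 24476 at promoters and 27330 distal. A promoter peak carries the name of a gene whose transcription start lies close by, with the peak centre at most 7510 nt away, and a distal peak carries none. In the knockout, both *Mettl3* alleles are flanked by lox sites and are cut by MerCreMer, a Cre recombinase held inactive by estrogen receptor domains until tamoxifen is given. It was driven by the alphaMHC (*Myh6*) promoter, so that only cardiomyocytes were meant to lose the gene while the other cells of the ventricle kept it. The study's methods describe adult mice of this strain, injected with tamoxifen on consecutive days alongside Cre-negative lox/lox controls. The labels call the controls of these libraries WT and name no lox sites, Cre, tamoxifen or age for them, so that effects of tamoxifen and of Cre cannot be told apart from that of the deletion if the WT mice had neither. A further genotype, *Trdn-as* KO, shares the WT libraries and is used here for the estimate of the spread. Chromatin was prepared from 2 hearts together. The sources used here do not say whether the libraries of a genotype came from separate animals, so the p-values may measure only the spread between preparations.

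METTL3 is the catalytic subunit of the complex that writes N6-methyladenosine (m6A) into nascent RNA, a mark that steers splicing, polyadenylation and decay. ChIP-seq with an antibody against the large subunit of Pol II recovers DNA at which the polymerase sits, most of it just downstream of start sites and, in genes of very high activity, along the whole gene. Intergenic or intronic Pol II peaks often mark active enhancers. The heart ventricle holds cardiomyocytes beside fibroblasts, endothelial cells, pericytes and leukocytes, and a ChIP of whole tissue sums over all of them, so more cells of a type and more polymerase per cell cannot be told apart.

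The values are read numbers divided by a size factor, and 1 read was worth 0.945 to 1.6 in the 4 libraries. They held an estimated 3209035 to 4953339 reads in peaks, which was 38.5% to 42.6% of their uniquely mapped reads. The second *Trdn-as* KO library, which entered the model only through the shared estimate of the spread, stood apart with 18.6% of its reads in peaks, against 35.5% in the first. Counts of calls by class, and promoter counts by gene list, are therefore given with and without it. Of 6 defining cardiomyocyte genes, *Myh6*, *Tnnt2*, *Actc1*, *Myl2* and *Ryr2* read at least 526 in each of the 4 libraries, and *Tnni3* read 109 and 119 in WT and 104 and 141 in the knockout, where the IgG libraries read 59 and 46 and the WT CTCF libraries 92 and 100. Over *Myh6* the WT libraries read 10654 and 11527 and the knockout libraries 11283 and 11566, and over *Tnnt2* they read 3260 and 3522 and 3326 and 3388. The CTCF libraries over the *Myh6* peak rose from 299 and 289 to 455 and 480 (log2 difference 0.67, limma adjusted p = 6.9e-05), and the IgG libraries had 1003 in WT and 1354 in the knockout. The transgene carries the promoter of *Myh6*, and its part in these values was not tested. *Ryr2* (641 and 697 in WT, 526 and 533 in the knockout) and *Actc1* (4063 and 4165, then 3806 and 3776) were lower without overlap. Neither was called, with limma adjusted p-values of 0.26 and 0.59, but both passed without the second *Trdn-as* KO library (0.014 and 0.012). At the promoter of *Mettl3* itself the WT libraries read 177 and 202 and the knockout libraries 240 and 235 (log2 difference 0.33, limma adjusted p = 0.44), which does not test the deletion, since an excised exon leaves the promoter in place. A set of 5 called peaks inside *Esr1*, the gene from which the estrogen receptor domain of MerCreMer derives, summed to 2 and 0 in WT and to 750 and 816 in Mettl3 KO hearts. These peaks count among the calls below and are not described further there. Of 21 clock genes tested by their strongest promoter peak, 2 were called higher and 7 lower, beside 1.26% and 0.379% of all genes. Without the second *Trdn-as* KO library 4 were higher and 11 lower (20% and 1.32% of all genes). In 14 of the 21 both knockout values lay below both WT values, beside 10.8% of all genes. Clock genes too count among the calls below and are not described further.

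Between the genotypes, 624 peaks differed at an adjusted p below 0.05 (limma on log2(value + 1), Benjamini-Hochberg adjustment over 52655 peaks). Of the promoter peaks tested, 232 were higher in Mettl3 KO hearts (0.948%) and 112 lower (0.458%). Of the distal peaks, 140 were higher (0.512%) and 140 lower (0.512%). In each of the 624 peaks both knockout values lay beyond both WT values, which a call with 2 libraries per genotype nearly requires. Of all genes, by their strongest promoter peak, 57.0% had both knockout values above both WT values and 10.8% below. The higher promoter peaks had a median log2 difference of 1.1 and the lower ones of -1.44, and for distal peaks the medians were 1.67 and -1.48. The direction of a call is relative to the authors' scaling, under which the median log2 difference was 0.167 over all promoter peaks tested and -0.0413 over distal peaks. Centring each library on the promoter peaks turned 372 higher and 252 lower calls into 728 and 1490. With voom on estimated reads the split was 1993 and 2318, and with the summed signal as library size 792 and 1454, so the balance of higher and lower calls depends on the scaling. Without the second *Trdn-as* KO library, 3279 promoter peaks were higher and 380 lower, and distal peaks numbered 547 and 381. The calls also rest on having both libraries of each genotype. When either WT or either Mettl3 KO library was left out, 0 to 3 higher and 0 to 2 lower promoter peaks and 0 to 8 higher and 0 to 1 lower distal peaks were called.

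**Figure D1:**
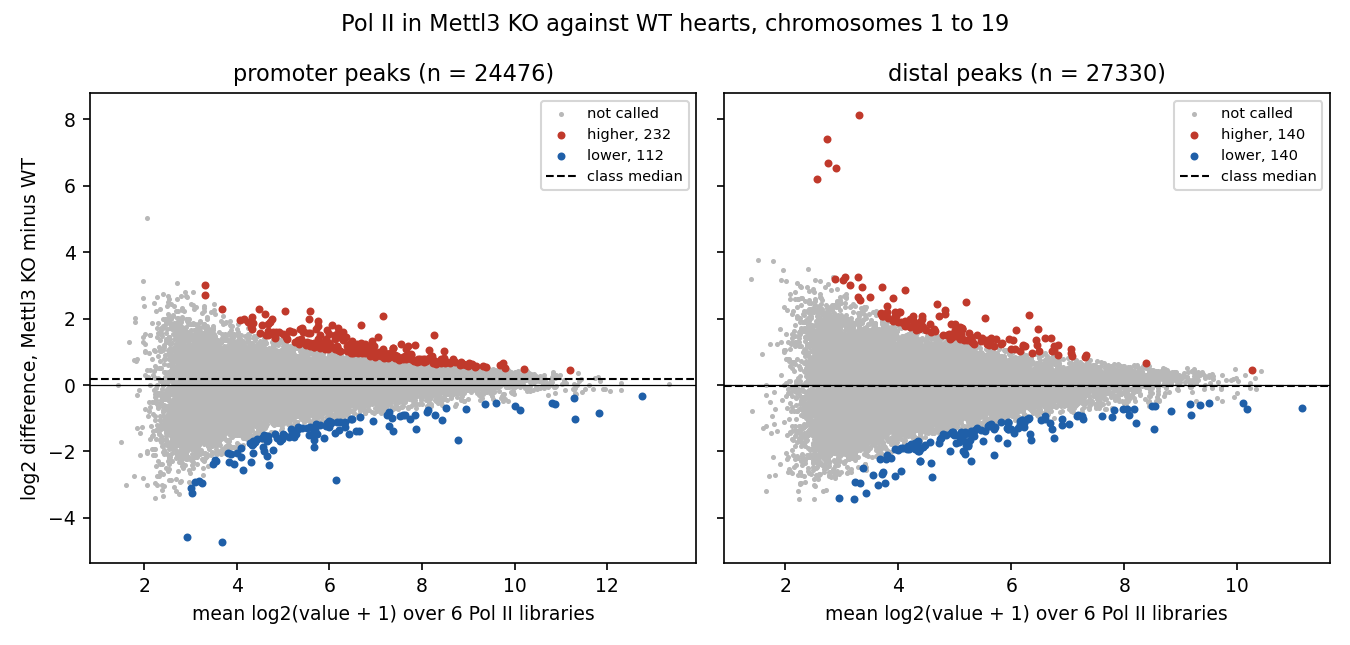
Log2 difference of Pol II (Mettl3 KO minus WT, vertical axis) against the mean log2(value + 1) over the 6 Pol II libraries (horizontal axis), for promoter (left) and distal peaks (right), each point a peak. Red and blue points passed an adjusted p of 0.05, 232 and 112 at promoters and 140 and 140 distal; the dashed line, the class median, sits above 0 at promoters (0.167), and the 5 distal points above 6 are the *Esr1* peaks.

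The positions of the called promoter peaks are given as a description, with no test. The centres of the higher peaks had a median distance of 345 nt from the start, and 72.4% (168 of 232) lay within 1000 nt. The lower peaks had a median distance of 2440 nt, and 25% (28 of 112) lay within 1000 nt. Over all promoter peaks tested the median was 866 nt and the share 52.2%. Likewise 86.2% of the higher but 53.6% of the lower peaks were the strongest promoter peak of their gene, beside 64.7% of all tested. Both kinds started from a similar level, with median WT values of 78.0 and 76.5, and reached medians of 169 and 30 in Mettl3 KO hearts. Long noncoding RNA genes named 28 of the 112 lower and 16 of the 232 higher peaks, beside 13.5% of all promoter peaks tested (3294 of 24476). Of the 28, 15 lay inside a protein-coding gene of the table, as did 6 of the 16 and 31.8% of the 3294, such as *Shld1* or *Nr4a1*. Reads were counted without regard to strand, so that polymerase on the noncoding and on the coding gene cannot be told apart there.

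The promoter with the smallest adjusted p among the higher ones was that of *Leo1*, which encodes a subunit of the PAF1 complex that travels with elongating Pol II. Its start-site peak (chr9:75348234-75349470, GRCm39) rose from 50 and 72 in WT to 224 and 205 in Mettl3 KO hearts, a ratio of means of 3.52 (log2 difference 1.82 ± 0.25, SE, adjusted p = 3.6e-06). The *Trdn-as* KO libraries, at 92 and 71, sat near the WT values. Further inside the gene, a weak peak read 0 and 2 in WT, then 12 and 13 in the knockout, and did not pass (adjusted p = 0.2). Of 22 genes of Pol II pausing and elongation, 21 were tested and *Leo1* was the one called, while *Paf1*, *Ctr9*, *Cdc73* and *Rtf1*, the other subunits of the complex, had log2 differences of 0.27, 0.31, 0.51 and 0.29 and adjusted p-values of 0.47, 0.42, 0.17 and 0.38. *Cdc73* and *Rtf1* passed without the second *Trdn-as* KO library (0.014 and 0.043). Of the 21, 8 were called higher and 0 lower without the second *Trdn-as* KO library, beside 20% and 1.32% of all genes. Over all genes, each taken by its strongest promoter peak, 200 of 15829 (1.26%) were higher and 60 (0.379%) lower, with a median log2 difference of 0.239.

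Collagen genes followed. *Col3a1*, the chain of type III collagen, had a start-site peak (chr1:45350257-45351263) that rose from 78 and 96 in WT to 230 and 246 in Mettl3 KO hearts (1.45 ± 0.23, adjusted p = 0.00011). A second peak inside the gene (chr1:45351935-45352473) rose from 10 and 36 to 81 and 110 (2.24 ± 0.36, adjusted p = 0.0001). There the *Trdn-as* KO libraries, with 45 and 71, were called higher than WT too (1.51, adjusted p = 0.035). *Col1a1*, the main chain of type I collagen, rose from 163 and 161 to 373 and 370 (1.19 ± 0.20, adjusted p = 0.00019). For both genes the knockout values exceeded the WT values by more than the gap between replicates of a genotype. Of the others with the smallest adjusted p, *Gdf6*, a growth factor of the BMP family, rose from 14 and 15 to 79 and 66 (log2 difference 2.24). *Entpd2*, an ectonucleotidase, rose from 35 and 50 to 131 and 152 (1.73), and *Clmp*, an adhesion molecule, from 35 and 43 to 132 and 146 (1.81). *Bzw1*, a regulator of translation initiation, went from 286 and 265 to 519 and 595 (1.01) and was the strongest of these peaks in WT.

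The windows from 250 bases before to 50 bases after the start, from RefSeq on GRCm38.p6, are shown for a collagen promoter and for *Leo1* as start-site peaks that rose, and for *Scn4b* as one that fell. The bases downstream of the start are in capitals, and this build differs from that of the peaks, so the positions are not comparable. The windows are chr1:45311288-45311587 (plus strand), chr9:75441274-75441573 (plus strand) and chr9:45138374-45138673 (plus strand).
Col3a1: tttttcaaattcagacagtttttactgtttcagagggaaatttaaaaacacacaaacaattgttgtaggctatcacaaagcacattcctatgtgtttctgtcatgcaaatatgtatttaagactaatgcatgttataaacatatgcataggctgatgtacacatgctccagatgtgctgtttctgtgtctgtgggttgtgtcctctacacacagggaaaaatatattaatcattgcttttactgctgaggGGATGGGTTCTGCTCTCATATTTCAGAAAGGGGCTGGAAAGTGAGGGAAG
Leo1: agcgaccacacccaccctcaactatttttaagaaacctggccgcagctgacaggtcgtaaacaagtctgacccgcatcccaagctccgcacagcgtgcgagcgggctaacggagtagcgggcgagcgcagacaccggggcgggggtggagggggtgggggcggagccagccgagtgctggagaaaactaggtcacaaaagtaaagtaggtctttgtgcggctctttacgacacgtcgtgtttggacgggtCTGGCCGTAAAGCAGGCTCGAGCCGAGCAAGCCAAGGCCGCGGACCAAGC
Scn4b: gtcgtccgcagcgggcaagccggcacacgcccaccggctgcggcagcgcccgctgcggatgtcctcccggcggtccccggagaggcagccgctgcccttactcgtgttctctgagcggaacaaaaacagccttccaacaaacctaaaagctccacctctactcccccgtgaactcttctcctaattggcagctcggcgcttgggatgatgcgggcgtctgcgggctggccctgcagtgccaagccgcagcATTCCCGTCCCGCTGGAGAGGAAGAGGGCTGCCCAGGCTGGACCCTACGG
The *Col3a1* window had a GC content of 37.7% and held a match to the TATA box motif TATAAA. All motifs were searched on both strands. The *Leo1* and *Scn4b* windows had GC contents of 61.3% and 66.3% and held no match to any of the 10 motifs searched. Across the genes with a window in the table, TATAAA was found in 14.8% of those called higher (19 of 128), in 7.69% of those called lower (2 of 26) and in 8.97% of all tested (831 of 9262). The E-box CACGTG was in 9.38% of those called higher (12 of 128), in 23.1% of those called lower (6 of 26) and in 11.2% of all tested. The GATA motif AGATAAG was in 0 of 128, 2 of 26 and 2.22% of all tested, and the D-box TTATGTAA in 1 of 128, 0 of 26 and 0.615%. These are letter matches, given with no test. The groups called higher and lower include the called clock genes, whose part in these shares was not examined.

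**Figure D2:**
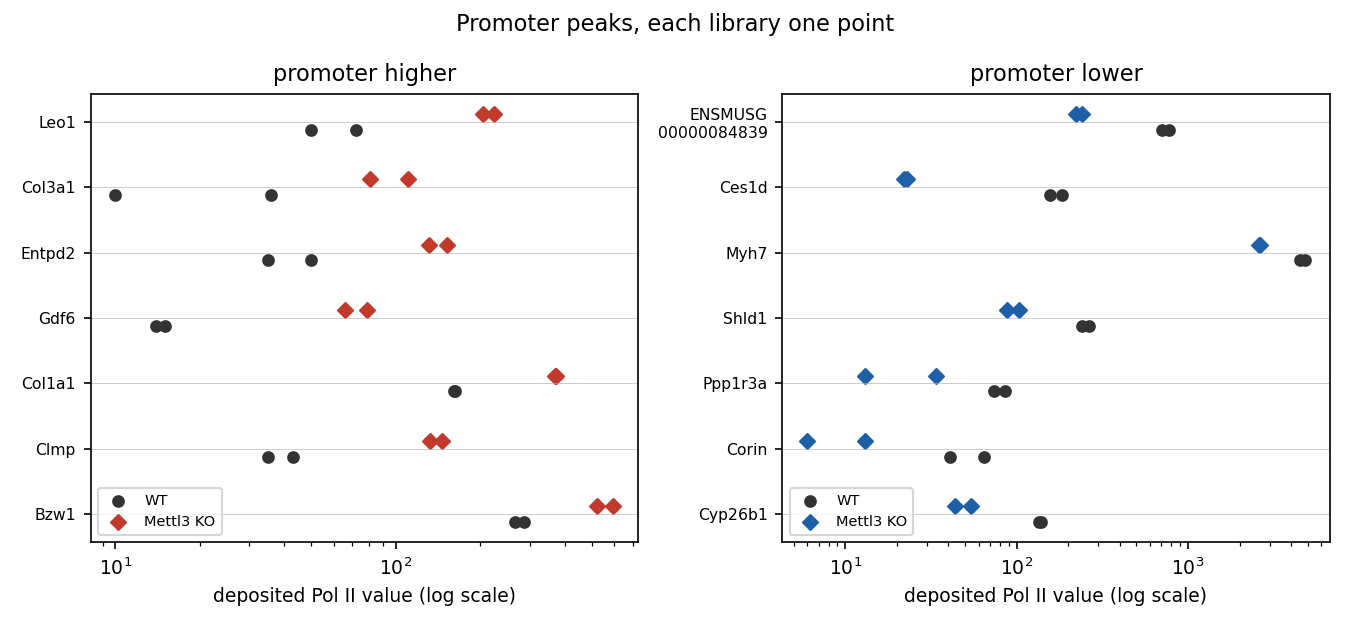
Deposited Pol II value (log axis) of each library at 7 of the 8 promoter peaks with the smallest adjusted p in each direction, for WT (black circles, 2 libraries) and Mettl3 KO hearts (diamonds, 2 libraries). The peaks were chosen to have both diamonds on one side of both circles, as at *Leo1* (50 and 72 against 224 and 205) and *Ces1d* (157 and 183 against 23 and 22).

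Genes of the extracellular matrix and of fibroblasts made up the largest group of higher promoters among the 28 lists examined. Of 25 such genes 23 were tested, and 12 were called higher and 0 lower, with a median log2 difference of 0.882 beside 0.239 over all genes. Of the 23, 22 had both knockout values above both WT values, compared with 57.0% of all genes. Without the second *Trdn-as* KO library 21 were higher and 0 lower (20% and 1.32% of all genes). With median centring as well, 17 were higher and 1 lower (5.38% and 3.78% of all genes), the lower gene being *Timp3*, at 513 and 512 in WT and 476 and 483 in the knockout. The called structural genes were *Col1a1*, *Col1a2*, *Col3a1*, *Col5a1*, *Col6a1*, *Fbn1*, *Eln*, *Fbln1* and *Fbln2*, encoding collagens, fibrillin, elastin and fibulins. *Loxl1*, which cross-links elastin, rose from 83 and 63 to 167 and 174 (1.23, adjusted p = 0.0026). The receptor gene *Pdgfra*, a fibroblast marker, had 3 called peaks, the strongest at 112 and 123 in WT and 255 and 258 in the knockout (1.12, adjusted p = 0.0018). *Tcf21*, a transcription factor of cardiac fibroblasts, rose from 231 and 247 to 410 and 387 (0.74, adjusted p = 0.021). Among the 11 not called were *Timp3* (-0.10, adjusted p = 0.82), *Fn1* (0.83, adjusted p = 0.074), *Postn* (1.15, 0.13), *Dcn* (0.68, 0.089) and *Sparc* (0.29, 0.36). The last 4 of these passed without the second *Trdn-as* KO library.

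The summed value over the strongest promoter peaks of this list was 3692 and 3766 for WT. It reached 6054 and 6051 for Mettl3 KO hearts, while the *Trdn-as* KO libraries gave 4542 and 3385, and no member was at 0 in all 4 libraries. The sums over sarcomere genes were 36271 and 39258 in WT and 38402 and 38393 in the knockout. Endothelial genes summed to 4754 and 5027 in WT and 4607 and 4303 in the knockout, smooth muscle and pericyte genes to 2246 and 2456 against 2586 and 2464, and macrophage and leukocyte genes to 555 and 601 against 745 and 667. The fibroblast sum thus separated the genotypes by far more than the replicates differed. The endothelial, leukocyte, and smooth muscle and pericyte sums did not overlap between genotypes either, the first lower and the others higher in the knockout, and the last of them was nearly touching (2456 and 2464). The part of cell numbers in these differences was not tested. Scaled to uniquely mapped reads, the 6-library model called none of the 12 genes, and the 4 libraries of the comparison alone called 16 of the list higher and 0 lower under that scaling (2.68% and 2.13% of all genes).

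Outside the list, and chosen after their values were seen, further matrix genes were among the higher promoters. *Lox*, encoding lysyl oxidase, rose from 22 and 26 to 77 and 86 (1.72, adjusted p = 0.0017). *Has2*, the main hyaluronan synthase, rose from 71 and 65 to 154 and 176 (1.26, adjusted p = 0.0023), and *Vcan*, encoding the proteoglycan versican, from 102 and 104 to 252 and 194 (1.09, adjusted p = 0.0037). *Itga11*, a collagen receptor subunit, rose from 5 and 9 to 42 and 32 (2.28), where 1 read is worth about 1 unit, so that few reads stand behind the WT values. The *Trdn-as* KO libraries had 32 and 43 there and were called higher than WT as well (2.30, adjusted p = 0.0018). The Wnt receptors *Fzd2* (231 and 206 to 454 and 453, 1.05) and *Fzd1* (251 and 219 to 384 and 458, 0.84) and the secreted Wnt antagonists *Sfrp1* (57 and 57 to 125 and 144, 1.22) and *Frzb* (86 and 66 to 191 and 166, 1.23) all passed. The transcription factor *Sox9* rose from 117 and 139 to 311 and 293 (1.24), and *Foxs1*, a forkhead factor known from pericytes, from 147 and 151 to 338 and 333 (1.17). *Pdgfrb*, the pericyte receptor, rose from 217 and 257 to 410 and 405 (0.78, adjusted p = 0.016). It was the one called of 15 smooth muscle and pericyte genes tested (2 without the second *Trdn-as* KO library), beside 1.26% of all genes called higher. The list median was 0.0245, beside 0.239 over all genes, and its lowest member was at -1.73. With that library left out and median centring, 1 was higher and 2 lower (5.38% and 3.78% of all genes).

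Of 31 genes of fatty acid uptake and oxidation 30 were tested, 3 were called higher and 0 lower, and the median log2 difference was 0.369, beside 0.239 over all genes. *Pdk4*, the kinase that restrains pyruvate oxidation, rose from 263 and 251 to 479 and 472 (0.89 ± 0.19, adjusted p = 0.0046). *Acadm*, the medium-chain acyl-CoA dehydrogenase, rose from 425 and 435 to 668 and 629 (0.59 ± 0.16, adjusted p = 0.039). In 28 of the 30 genes both knockout values lay above both WT values, but so they did in 57.0% of all genes. Without the second *Trdn-as* KO library 19 were higher and 0 lower (20% and 1.32% of all genes), and 8 higher and 1 lower (5.38% and 3.78%) when that fit was also median centred. Of the genes of glucose, pyruvate and the TCA cycle, 29 were tested and 0 called by limma, with a median of 0.249. At an unadjusted p below 0.05, 9 were higher and 0 lower (19.8% and 3.0% of all genes), and by voom 6 and 2 (9.4% and 4.38%). Leaving out the second *Trdn-as* KO library gave 10 higher and 1 lower. Of 23 genes of oxidative phosphorylation tested, 1 was called, and it was higher (9 higher and 0 lower without that library), with a median of 0.25. The medians of both lists lay near that of all genes.

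Of 14 fetal and stress genes of the heart tested, 1 was called higher and 1 lower (1.26% and 0.379% of all genes), and the median log2 difference was 0.214 beside 0.239. In 8 of the 14 both knockout values lay above both WT values, beside 57.0% of all genes. *Nppb*, encoding the natriuretic peptide BNP, rose from 673 and 706 to 1089 and 1088 (0.66 ± 0.14, adjusted p = 0.0046). *Myh7*, encoding the slow, fetal myosin heavy chain, fell from 4531 and 4807 to 2586 and 2617 (log2 difference -0.84 ± 0.10, adjusted p = 3.7e-08), a ratio of means of 0.557. Its peak spanned 20606 nt with its centre 3680 nt from the start, so it reached well beyond the start on both sides. The part of it over the gene body was not measured. The *Trdn-as* KO libraries, at 4451 and 3581, lay closer to the WT values. *Nppa*, encoding ANP, read 109 and 98 in WT, then 111 and 146 in the knockout, in its strongest promoter peak, 3459 nt from the start, and was not called (0.30, adjusted p = 0.57). The weaker peak 172 nt from its start had 18 and 27 in WT against 8 and 21 and was not called either (-0.71, adjusted p = 0.48). *Myh6* was not called (0.04, adjusted p = 0.84). Of the 14 genes, 1 was higher and 2 were lower without the second *Trdn-as* KO library (20% and 1.32% of all genes).

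Among 19 tested genes of calcium handling, *Casq2*, the calcium buffer of the sarcoplasmic reticulum, rose from 233 and 241 to 396 and 410 (0.76, adjusted p = 0.02). *Camk2d*, the main cardiac CaM kinase, rose from 758 and 770 to 1041 and 1136 (0.51, adjusted p = 0.039). *Cacna1c*, encoding the pore of the L-type calcium channel, fell from 965 and 960 to 713 and 623 (-0.53, adjusted p = 0.044), in a peak that also lies inside *Dcp1b*, and a distal peak inside *Cacna1c* fell from 165 and 201 to 71 and 51 (-1.58, adjusted p = 0.0001). Of 20 ion channel and connexin genes tested, *Scn4b*, a sodium channel beta subunit, fell from 48 and 20 to 6 and 5 (-2.31 ± 0.48, adjusted p = 0.0041), with a wide gap between the WT libraries. At this weak peak the IgG libraries read 20 in WT and 23 in the knockout. *Kcnk3*, a background potassium channel, rose from 355 and 402 to 572 and 658 (0.70, adjusted p = 0.013). Single members of other lists were *Cdkn1a*, the cell cycle inhibitor p21 (407 and 439 to 655 and 683, 0.66), *Myc* (496 and 548 to 796 and 749, 0.57), *Spi1*, the myeloid factor PU.1 (38 and 54 to 107 and 102, 1.19), and *Scd1*, a fatty acid desaturase (94 and 151 to 219 and 219, 0.87). In the lists of m6A writers and erasers, m6A readers, polyadenylation factors and cardiac transcription factors, of 10, 8, 20 and 18 genes tested, limma called 0 in either direction. At an unadjusted p below 0.05 there were 4, 3, 3 and 4 higher genes in these lists and 0 lower, beside 19.8% and 3.0% of all genes. By voom, 2, 2, 1 and 3 were higher, and 5 cardiac transcription factors were lower, beside 9.4% and 4.38%. Without the second *Trdn-as* KO library 6, 4, 4 and 7 were higher and 0 lower, beside 20% and 1.32% of all genes. In that fit the calcium handling list had 6 higher and 4 lower and the ion channel list 2 and 3. Nothing particular to these short lists is read from the counts.

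The lowest adjusted p among lower promoters belonged to a long noncoding RNA gene, ENSMUSG00000084839, which lies inside *Shld1*, which encodes a factor that protects DNA ends in repair. Its main peak (chr2:132534284-132538107) fell from 701 and 778 to 241 and 222 (-1.67 ± 0.17, adjusted p = 2.4e-10). All 5 tested peaks between chr2:132530442 and 132544118 were called lower, 3 named for this gene and 2 for *Shld1*, and together they summed to 1755 and 1852 in WT and to 741 and 692 in the knockout. *Ces1d*, a carboxylesterase that hydrolyses triglycerides and is abundant in adipose tissue, fell from 157 and 183 to 23 and 22 at its start (chr8:93923962-93925038, -2.86 ± 0.30, adjusted p = 1.2e-09), a ratio of means of 0.132. Its other called promoter peaks had 48 and 41 against 2 and 0, and 16 and 20 against 1 and 2. The *Trdn-as* KO libraries had 131 and 57 at the start of *Ces1d*, which leaves them between the other genotypes. Of the other 11 adipocyte genes tested, *Scd1* alone was called, and it was higher.

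*Ppp1r3a*, a subunit that directs protein phosphatase 1 to glycogen, fell from 86 and 74 to 34 and 13 in a peak 2261 nt from its start (-1.87, adjusted p = 0.00053). *Cyp26b1*, which degrades retinoic acid, fell from 135 and 138 to 44 and 54 (-1.47, adjusted p = 0.00053) and again in a distal peak inside the gene, from 97 and 97 to 42 and 42 (-1.19, adjusted p = 0.018). *Corin*, the protease that activates natriuretic peptides, had a lower peak 4408 nt from its start, at 41 and 65 in WT and 13 and 6 in the knockout (-2.41, adjusted p = 0.00053). The main *Corin* peak, nearer the start, had 577 and 570 against 416 and 410 and was not called (-0.47, adjusted p = 0.12), but it passed without the second *Trdn-as* KO library (0.0061), with the 4 libraries alone (0.0054) and by voom (1.1e-13).

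Further lower promoter peaks were chosen after their values were seen. *Irs2*, an adaptor of the insulin receptor, fell from 46 and 57 to 19 and 6 (-2.14, adjusted p = 0.0026), 2537 nt from the start, and a distal peak whose nearest coding gene is *Irs2* at 331232 nt fell from 86 and 120 to 34 and 26 (-1.74, adjusted p = 0.00029). *Tgfbr2*, a TGF-beta receptor, fell from 33 and 44 to 13 and 6 (-1.98), and *Myocd*, encoding the smooth and cardiac muscle coactivator myocardin, had peaks that fell from 53 and 53 to 30 and 11 (-1.49) and from 78 and 67 to 34 and 26 (-1.25). *Cav1*, the main caveolin of endothelium, fell from 121 and 119 to 58 and 51 (-1.13), with a distal peak inside the gene that went from 34 and 25 to 5 and 3. The 17 endothelial genes tested by their strongest promoter peak included 0 called by limma, with a median of -0.127 (1 higher and 2 lower at an unadjusted p below 0.05, beside 19.8% and 3.0% of all genes, and 0 and 5 by voom, beside 9.4% and 4.38%). The fit without the second *Trdn-as* KO library called 0 higher and 2 lower.

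Of 59 tested distal peaks inside genes of the matrix and fibroblast list, 2 were called higher and 0 lower, with a median log2 difference of 0.374, beside 63 and 95 of 15549 distal peaks inside any gene. The region upstream of *Col1a1* held the run with the most called peaks. Between chr11:94764548 and 94828869, 7 of 11 tested peaks were called higher, 5 of them distal, and the 7 summed to 290 and 302 in WT and 853 and 804 in the knockout. The farthest, 62087 nt upstream of *Col1a1*, had 19 and 31 against 98 and 104 (2.01, adjusted p = 0.00012), and the nearest, at 6802 nt, had 65 and 68 against 194 and 163 (1.41, adjusted p = 0.00058). Around *Htra3*, which encodes a secreted serine protease, 5 called peaks of 15 tested summed to 229 and 240 against 572 and 529. Upstream of *Col1a2*, which encodes the partner chain of *Col1a1*, 4 called peaks of 8 tested, the promoter included, summed to 287 and 268 against 675 and 608. A peak inside the gene ENSMUSG00000120798, 48121 nt upstream of *Fmod*, which encodes the collagen-binding protein fibromodulin, rose from 5 and 5 to 42 and 43, where the IgG libraries read 13 in WT and 28 in the knockout. A peak 24248 nt downstream of *Ptges*, encoding a prostaglandin E synthase, rose from 15 and 13 to 77 and 66 (2.27). *Col5a3* carried 3 called peaks, the one at its start with 44 and 23 against 131 and 115 (1.91, adjusted p = 0.00038).

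The rising distal peak with the smallest adjusted p outside *Esr1* lay inside *Slc41a3*, a magnesium transporter gene (chr6:90595902-90597360), which rose from 37 and 37 in WT to 168 and 160 in Mettl3 KO hearts (2.12 ± 0.27, adjusted p = 3.4e-07). The *Trdn-as* KO libraries had 83 and 73 there. The IgG libraries read 53 in WT and 46 in the knockout, so the WT Pol II values did not exceed IgG. Inside *Kcne1*, the gene of the beta subunit of the slow potassium current (chr16:92142973-92143870), values rose from 46 and 50 to 162 and 149 (1.68 ± 0.26, adjusted p = 4.7e-05), and 2 further peaks, 579 nt and 4765 nt downstream of the gene, rose from 22 and 37 to 75 and 70 and from 26 and 25 to 69 and 86. The 1 *Kcne1* promoter peak tested had 11 and 9 against 28 and 32 (adjusted p = 0.13), and passed without the second *Trdn-as* KO library (0.049) and with the 4 libraries alone (0.041). The IgG libraries had 23 in WT and 14 in the knockout at this promoter peak. At the called peak inside *Kcne1* they had 20 in WT and 55 in the knockout, and the part of background there was not tested. A peak inside the noncoding gene ENSMUSG00000107638, with *Pde3a*, a cardiac cyclic nucleotide phosphodiesterase, as its nearest coding gene at 207058 nt, rose from 14 and 13 to 91 and 72 (2.50), and the *Trdn-as* KO libraries, with 38 and 43, were called higher than WT too (1.52, adjusted p = 0.027). Peaks 154410 nt from *Gas1* (11 and 8 to 52 and 59) and 104737 nt from *Fzd4* (63 and 79 to 190 and 187) completed the list. Nearest genes were taken from genes with a promoter peak in the table, so a nearer gene without one would not be seen.

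**Figure D3:**
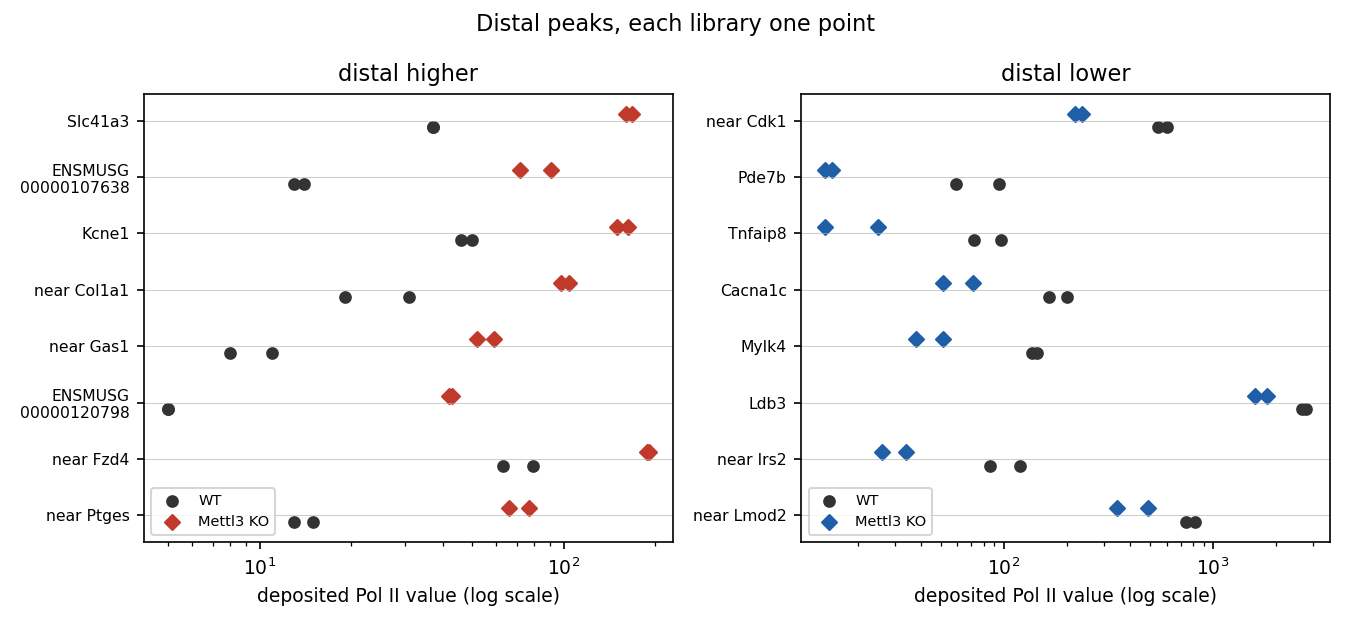
Deposited Pol II value (log axis) of each library at the 8 distal peaks with the smallest adjusted p in each direction, for WT (black circles, 2 libraries) and Mettl3 KO hearts (diamonds, 2 libraries). A label gives the gene a peak lies in or, after near, its nearest coding gene. The peaks were chosen to have the groups apart, as at *Slc41a3* (37 and 37 against 168 and 160) and *Ldb3* (2659 and 2772 against 1819 and 1580).

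Of the distal peaks that fell, 95 of 140 lay inside genes, as did 63 of 140 of those that rose and 15549 of 27330 of all tested, a difference that was not tested. Genes with several such peaks, or named by the smallest adjusted p, are given first. *Mylk4*, a myosin light chain kinase gene, had 4 called peaks of 7 tested in the run, which summed to 727 and 734 in WT and 285 and 301 in the knockout, with log2 differences from -1.80 to -1.15. At the strongest of these, with 479 and 491 in WT and 218 and 218 in the knockout, the *Trdn-as* KO libraries had 311 and 183 and were called lower than WT as well (-1.02, adjusted p = 0.0016). Inside *Ldb3*, the gene of the Z-disc protein cypher, a peak of 12026 nt fell from 2659 and 2772 to 1819 and 1580 (-0.68, adjusted p = 0.00014). *Ttn*, which encodes titin, had 3 called peaks, at 91 and 79 against 31 and 37, 37 and 33 against 12 and 6, and 27 and 35 against 11 and 5. A peak 2863 nt downstream of *Lmod2*, the gene of the thin filament nucleator leiomodin, fell from 741 and 815 to 489 and 346 (-0.92, adjusted p = 0.00038).

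Read as a list, the 20 sarcomere and Z-disc genes tested at their promoters included 0 called by limma, with a median of 0.0182 (2 higher and 1 lower at an unadjusted p below 0.05, beside 19.8% and 3.0% of all genes, and 1 and 11 by voom, beside 9.4% and 4.38%). Of the 20, 4 were higher and 3 lower without the second *Trdn-as* KO library. The 136 tested distal peaks inside genes of this list had 4 lower and 0 higher calls and a median of -0.511, while all distal peaks inside genes had 63 higher and 95 lower calls of 15549 and a median of -0.0628. Promoter peaks of such genes can span the gene body, as over *Tnnt2* (15705 nt), *Actc1* (13642 nt), *Myl2* (15039 nt) and *Myh6* (32955 nt). When the second *Trdn-as* KO library was left out and each library centred, the promoter median was -0.156. In that limma fit 1 of the 20 genes was higher and 10 were lower, beside 5.38% and 3.78% of all genes. The voom standard errors became small at strong peaks, with a median of 0.0328 against 0.125 by limma over the 197 tested peaks of the highest values and 0.0033 against 0.08 over *Myh6*, so that voom counts for lists of strongly occupied genes are given as values alone. Members of other cardiac families, chosen after their values were seen, were *Mypn*, a Z-disc gene (54 and 63 to 27 and 10), *Rbm20*, a regulator of titin splicing (64 and 61 to 18 and 24), and *Cacnb2*, a calcium channel subunit gene (105 and 108 to 40 and 61). Upstream of calcium pump and release genes, a peak 20416 nt from *Atp2a2* fell from 106 and 87 to 54 and 27 (-1.31, adjusted p = 0.01) and one 25807 nt from *Ryr2* from 588 and 624 to 351 and 349 (-0.79, adjusted p = 0.0035).

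The distal peak with the smallest adjusted p among the lower ones (chr10:69054563-69057670) fell from 546 and 604 to 236 and 218 (-1.34 ± 0.17, adjusted p = 6.1e-07), and the next called peak went from 41 and 60 to 8 and 5. Its nearest coding gene in the table was *Cdk1*, at 114859 nt. Inside *Pde7b*, a cAMP phosphodiesterase gene, values fell from 59 and 95 to 15 and 14 (-2.29, adjusted p = 3e-05), and inside *Tnfaip8*, an apoptosis regulator gene, from 97 and 72 to 25 and 14 (-2.10, adjusted p = 4.9e-05). Around *Nr4a1*, an immediate early nuclear receptor gene, 4 of 7 tested peaks fell, summing to 592 and 510 in WT and 288 and 321 in the knockout.

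The CTCF and IgG libraries of the same genotypes gave a second reading of these regions. CTCF is a DNA-binding protein of chromatin loops, and where it is not bound the signal of its libraries is background. Over the genome 109 of 59341 peaks tested for CTCF (0.184%) differed between Mettl3 KO and WT hearts. The 5 *Esr1* peaks are left out of the rest of this comparison, which leaves 135 higher distal peaks. Of the Pol II peaks called, 523 were tested for CTCF, 17 of these were called there, and all 17 had the sign of the Pol II difference. Among them *Loxl1* (distal peak, CTCF log2 difference 1.28), *Mrgprf* (0.99), *Sod3* (0.97), *Serping1* (0.93), *Unc5c* (1.07) and a peak upstream of *Col1a1* (1.04) were higher, and *Fhip2a* (-1.44), *Gstt2* (-0.71) and *Jak2* (-1.10) lower. At Pol II peaks called higher, the median CTCF log2 difference was 0.225 at promoters and 0.608 at distal peaks, and at those called lower -0.241 and -0.254, while over all promoter and distal peaks it was -0.0577 and -0.0376. With 1 IgG library per genotype there was no replicate check. IgG values at the higher distal peaks summed to 3174 in WT and 3589 in the knockout and at the lower ones to 6391 and 5709. These differences were far smaller than those of Pol II, which summed to 4600 and 5010 against 11494 and 11317 and to 21556 and 22692 against 11734 and 11195. The part of such background in the Pol II differences was not tested.

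**Figure D4:**
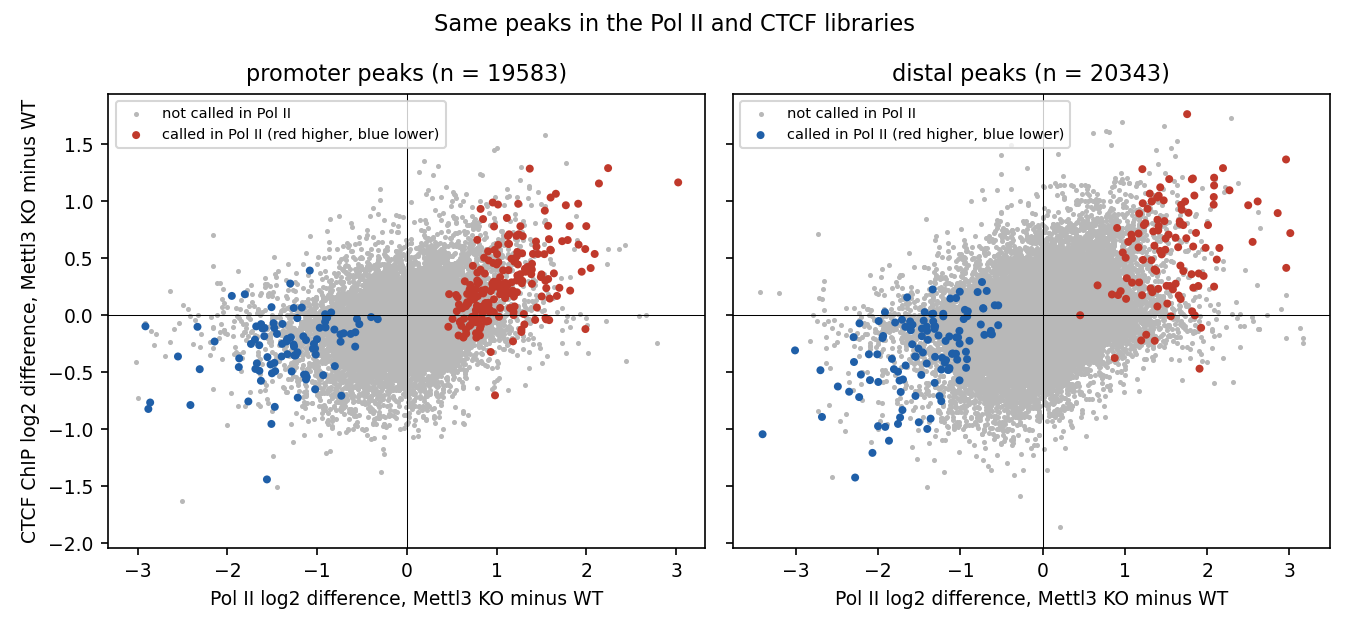
Log2 difference (Mettl3 KO minus WT) in the CTCF libraries (vertical axis) against that in the Pol II libraries (horizontal axis) at peaks tested for both, 19583 promoter (left) and 20343 distal (right). Red and blue points were called higher and lower for Pol II, with median CTCF differences of 0.225 and -0.241 at promoters and 0.608 and -0.254 distal.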

How the data were processed

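Pol II ChIP-seq of mouse hearts was analysed in 6 libraries (WT, Mettl3 KO and *Trdn-as* KO, 2 each), with CTCF and IgG libraries as second readings. Per the labels and methods, the authors used Trimmomatic (0.39) for trimming and STAR (2.7.11b) for alignment to GRCm39, removed duplicates with Picard (3.1.1) and multi-mapping reads, merged MACS peaks into 1 set, counted with featureCounts and normalized with DESeq2 (1.36.0). The deposited values are a score, namely normalized read numbers that the authors rounded to whole numbers, so they are not counts and no count test was run. A size factor from peak reads fixes the overall level, so a change shared by most peaks would not be seen.

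Peaks that reached 10 in 2 or more of the 6 Pol II libraries were tested on log2(value + 1) with limma (3.58.1, R 4.3.3), with a mean-variance trend, 1 mean per genotype and Benjamini-Hochberg adjustment at 0.05. Differences of low values are understated on this scale. CTCF was tested likewise. Tables and plots used python (3.11.15), pandas (2.3.3), numpy (2.4.6) and matplotlib (3.10.9). The share of reads in peaks was estimated from the value of 1 read and the uniquely mapped reads that the study states. Named peaks were the 8 of smallest adjusted p per class and direction with both knockout values beyond both WT values, called genes of 28 lists, and genes with at least 3 called peaks. Some named peaks are not reported here. The peaks, lists and rule were chosen with earlier results of these data known. The model was tested on simulated data. Alternatives covered samples, filter, scaling, variance model, pseudocount, threshold and replicate block, with voom and combined settings added after seeing the data. Same-numbered WT and Mettl3 KO libraries did not deviate together (correlation -0.00023), so the numbers do not pair them.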

Additional observations from a re-analysis of the deposited data

Results flagged for a closer look

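Signal inside *Esr1* appeared in libraries outside the Pol II comparison. Over the 5 *Esr1* peaks called for Pol II, the IgG library of Mettl3 KO hearts summed to 143, against 39 in the WT and 20 in the *Trdn-as* KO IgG library, with 1 IgG library per genotype. The CTCF libraries of Mettl3 KO hearts summed to 28 and 32 there, whereas the WT libraries had 0 and 0 and the *Trdn-as* KO libraries 1 and 3. The MerCreMer transgene carries a part of *Esr1*, and its part in these values was not tested.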

How the results depend on the processing

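The calls depended strongly on the estimate of the spread and on the scaling. None of the 75 named peaks changed direction under any alternative. Both knockout values lay beyond both WT values in each of them, so most alternatives could not have changed it. Counts are given in the order promoter higher, promoter lower, distal higher and distal lower, against 232, 112, 140 and 140 as reported. With the 4 WT and Mettl3 KO libraries alone they were 3418, 390, 592 and 387, and without the second *Trdn-as* KO library 3279, 380, 547 and 381. A filter at 20 gave 452, 191, 217 and 232, a pseudocount of 5 gave 358, 180, 225 and 213, and an adjusted p below 0.01 gave 65, 40, 40 and 49. Without the filter limma called 0 in all 4 classes (3345, 1498, 2154 and 2643 at an unadjusted p below 0.05), and without a variance trend 0, 0, 2 and 0 (1051, 1139, 1576 and 1773). Scaled to uniquely mapped reads, 0, 7, 10 and 16 passed (290, 847, 549 and 1320 unadjusted), and 66 of the 75 named peaks missed the threshold. Summed signal gave 603, 742 and 712 and promoter centring 541, 758 and 732 for all classes but distal higher, which stayed within 1.5 times.

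Of the alternatives chosen after seeing the data, voom gave 1576, 1148, 417 and 1170, the fit without the second *Trdn-as* KO library and centred 925, 1089, 326 and 1150, and the 4 libraries scaled to uniquely mapped reads 495, 710, 320 and 891. Leaving out 1 of the 4 compared libraries gave 0 to 3, 0 to 2, 0 to 8 and 0 to 1 (887 to 1337, 445 to 1230, 689 to 1329 and 681 to 1976 unadjusted), and 68 to 75 named peaks missed the threshold, 70 without WT replicate 1, 68 without WT replicate 2, 74 without Mettl3 KO replicate 1 and 75 without Mettl3 KO replicate 2. The lone library is then assumed to vary like the other groups. The replicate block gave 249, 145, 174 and 180 with 6 libraries and 2558, 276, 421 and 262 with 4. A pseudocount of 0.5 and a fit on chromosomes 1 to 19 alone stayed within 1.5 times. The causes were not tested. The edgeR and DESeq2 tests were not run, since whole reads were not recovered from values rounded to whole numbers. Few reads stand behind values under about 10.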

Other observations

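Lists of stress and signalling genes not described above held few calls. Of 16 heat shock genes tested, 14 genes of the integrated and ER stress responses and 21 interferon-stimulated genes, limma called 0, with medians of 0.262, 0.22 and 0.251 beside 0.239 over all genes. At an unadjusted p below 0.05, 6, 2 and 5 of these were higher and 0 lower, and by voom 2, 1 and 0 were higher and 1, 1 and 0 lower. Of all genes, 19.8% were higher and 3.0% lower at an unadjusted p below 0.05, and 9.4% and 4.38% by voom. Without the second *Trdn-as* KO library 9, 5 and 2 of these genes were higher and 0 lower, beside 20% and 1.32% of all genes. Among 15 genes of adrenergic and cAMP signalling and 19 metabolic nuclear receptors and coactivators limma also called 0, with 5 and 3 higher and 1 and 0 lower at an unadjusted p below 0.05, and 3 and 2 higher and 2 and 2 lower by voom, and 5 and 3 higher and 2 and 0 lower without that library. Of 6 Schwann cell and neuron genes and 9 skeletal muscle genes limma called 0, with 1 and 0 higher and 0 and 1 lower at an unadjusted p below 0.05, and 0 higher and 0 and 2 lower by voom, and 0 and 1 higher and 0 lower without that library. In the lists of glucocorticoid and insulin responsive genes, immediate early genes and p53 targets, of 17, 19 and 18 genes tested, 1 each was called higher, and 6, 6 and 9 without that library. In the leukocyte list 1 gene was called higher with and without it, and in the adipocyte list 1 higher and 1 lower with it and 2 and 2 without it.

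Inside *Gata4*, which encodes a cardiac transcription factor, a distal peak rose from 1073 and 1098 to 1462 and 1519 (0.46, adjusted p = 0.044), the one call among 95 tested distal peaks inside cardiac transcription factor genes.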
